A study of Mus musculus with 4 samples.

Results

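The genes described here were 34 macrophage, monocyte and pan-leukocyte genes, chosen by name, out of 35580 genes summed from the deposited transcript tables, and all 34 were found. They were read in 4 RNA sequencing libraries of stromal vascular fraction cells, which is what remains of digested fat once the adipocytes have floated off, from subcutaneous adipose tissue of C57BL/6 mice labelled WT. The 2 Mmp3-negative libraries held cells negative, and the 2 Mmp3-positive libraries cells positive, using VB1-19770-PF, which the labels give only as a code. How the cells were separated is not stated in the labels, and no other treatment, allele, age or sex was given in the labels. Replicates 1 and 2 of each group are called Set1 and Set2 in the labels, which do not say whether sets were separate animals or pools, so the p-values reflect a spread between libraries that may be technical. The only comparison in the labels asked how Mmp3-positive cells differed from Mmp3-negative cells.

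Libraries held 17693755 to 20286221 estimated counts, the reads that kallisto assigned to transcripts. Mmp3, the matrix metalloproteinase gene that defined the groups, was as labelled, at 1968 and 2264 counts in the negative pair and 79059 and 66954 in the positive pair. The labelled stromal fraction was checked with 6 fibroblast markers (Pdgfra, Pdgfrb, Col1a1, Col3a1, Dcn, Lum), and all 6 had counts in every library. Levels below are TMM-normalised CPM, that is counts scaled to library size with the libraries also scaled to each other, unless TPM is named. TPM also divides by transcript length, and only TPM was used to rank genes against each other. Where paired values stand against each other, the first pair is Mmp3-negative replicates 1 and 2 and the second pair Mmp3-positive replicates 1 and 2.

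Macrophages are the most numerous immune cells of lean fat. They depend on the receptor Csf1r and the transcription factor PU.1 (encoded by Spi1), take up debris and modified lipoproteins through scavenger and lectin receptors, bind antibody through Fc receptors, and produce superoxide with a NADPH oxidase made of membrane and cytosolic subunits. Tissue-resident macrophages of fat are known for Mrc1, Cd163, Lyve1 and Folr2, and monocytes that enter from blood for Ccr2. Ptprc (CD45), Laptm5, Coro1a, Lcp1, Cd52 and Cd53 are shared by most leukocytes.

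The genes were together lower in the Mmp3-positive libraries. Their summed level was 326.5 and 297.8 CPM in Mmp3-negative replicates 1 and 2 and 36.58 and 62.98 CPM in the Mmp3-positive replicates. The Mmp3-negative libraries lay above the Mmp3-positive ones, and the means, 312 ± 20.31 and 49.8 ± 18.7 CPM (SD, n = 2), differed 6.27-fold. In summed TPM the libraries stood at 252.4 and 340.9 against 45.86 and 43.89, a ratio of 6.61. No test was made of these sums, because a permutation of 2 against 2 libraries cannot go below p = 0.33. In bulk RNA, fewer macrophages and less RNA per macrophage cannot be told apart.

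**Figure D1:**
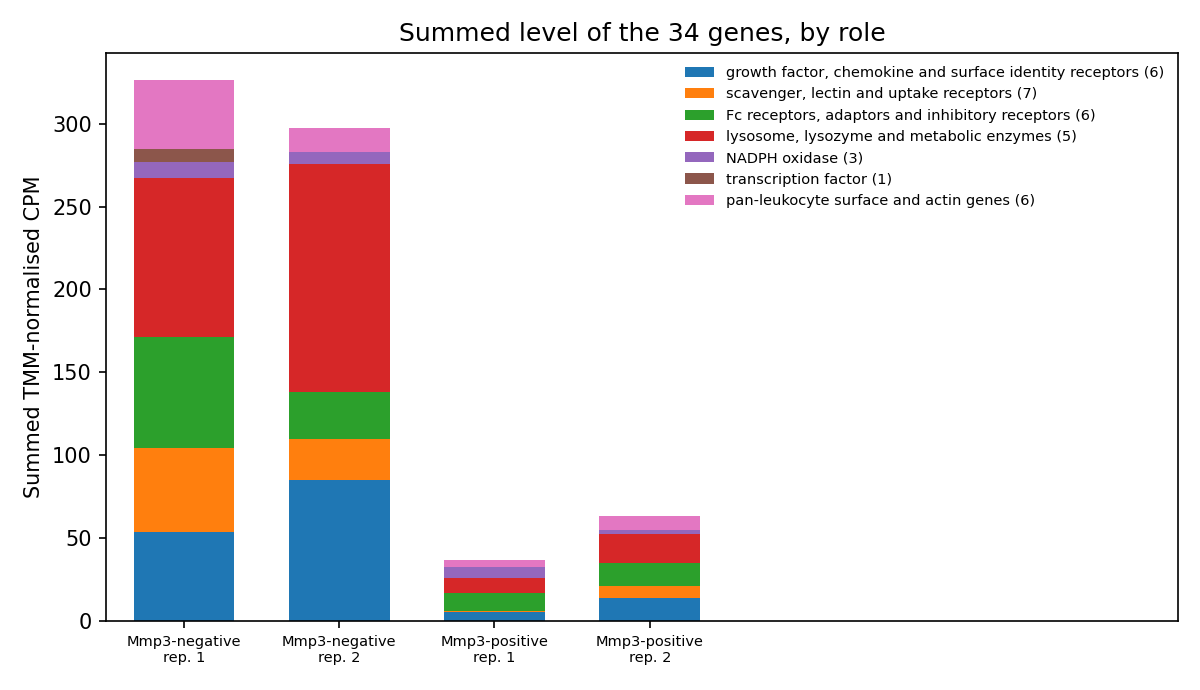
Summed TMM-normalised CPM of the 34 genes in each of the 4 libraries, stacked by role, with the number of genes in parentheses. The Mmp3-negative bars reach 326.5 and 297.8 and the Mmp3-positive bars 36.58 and 62.98.

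The number of the 34 genes detected differed in the same direction. At least 10 counts were found for 26 and 21 of the 34 genes in the Mmp3-negative replicates and for 15 and 13 in the Mmp3-positive replicates, and at least 100 counts for 16 and 14 against 1 and 5. Over all 35580 genes the order was the opposite, with at least 10 counts for 12953 and 12697 against 14382 and 13720. In 16 of 34 genes both Mmp3-negative libraries were above both Mmp3-positive ones, against 14.7% of the 18232 genes with a count. The opposite order held for 2 genes, Cybb and Fcgr3, against 18.8% of those genes. A further 14 genes overlapped between groups, and Fcer1g and Cd52 had 0 counts in all 4 libraries. When reads on protein-coding transcripts alone were summed, 9 genes were higher in both Mmp3-negative libraries, against 11.2% of genes, and 0 in both Mmp3-positive ones, against 17.2%.

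No gene of the 34 passed the test. The count filter, which asks for about 10 counts in at least 2 libraries, left out 11 of them, some of which, such as Lyve1, had more counts but in 1 library only. Of the 23 tested 0 were higher and 0 lower with edgeR's quasi-likelihood test at an adjusted p under 0.05, where 0.00705% of 14185 genes were called higher and 0.0141% lower. The lowest adjusted p was 0.480 (edgeR). At an unadjusted p under 0.05, 7 were lower, against 3.25% of all genes, and 1 was higher, against 5.62%. All 8 of these had 0 counts in both libraries of a group. The DESeq2 Wald test called 10 lower (Acod1, Adgre1, Cd68, Coro1a, Cx3cr1, Fcgr1, Folr2, Laptm5, Msr1 and Ncf4), against 4.18% of genes, and Cybb higher, against 5.46%. Limma on log2(TPM + 1) called 0, with 12 of the 23 at an unadjusted p under 0.05 against 7.72% of genes. Acod1, Adgre1, Coro1a, Cybb, Folr2, Laptm5, Msr1 and Ncf4 were the 8 at 0 in both libraries of a group. They passed the filter only through the group where they were high. The DESeq2 and limma counts are therefore not support for a difference. With edgeR, Laptm5 was called lower with no count filter (adjusted p = 0.0142, where 0.126% of genes were called lower and 0.0219% higher). With edgeR and without Mmp3-negative replicate 1, Acod1 (adjusted p = 0.0412), Laptm5 (0.000645) and Lyve1 were called lower, where 0.602% of genes were. Without replicate 2, Acod1 (0.00388) and Laptm5 (0.0352) were, where 0.709% of genes were.

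Among the 23 tested genes the median log2 fold change was -2.85, beside 0.02 for all genes tested. It also stood at -2.85 with genes at 0 in a group set to the bound given by 3 counts per library. That step could not move the median, because each bound lay on the same side of it as the value replaced. This median describes only genes that passed the filter, and 13 of them had at least 10 counts in both Mmp3-negative but not in both Mmp3-positive libraries, so it is not support for a difference. Only 6 of the 34 genes had at least 10 counts in all 4 libraries.

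Replicates of a group often disagreed for single genes. In the Mmp3-negative pair, 28 genes had at least 30 counts in a library, and 6 of these had 0 in the other: Lyve1 was found only in replicate 2, and Cd163, Tyrobp, Spi1, Cd53 and Aif1 only in replicate 1. In the Mmp3-positive pair 3 of 13 genes did so, Lyz2 and Lilrb4a with counts in replicate 1 and Mertk with counts in replicate 2. Among protein-coding genes whose higher count was 30 to 1000, 22.9% were at 0 in the other library of the Mmp3-negative pair, beside 21.4% of the 34 genes under the same bounds. For the Mmp3-positive pair these shares were 14.1% and 23.1%. In the sum of all 34 genes, replicate 2 stood at 0.912 times replicate 1 for Mmp3-negative and at 1.72 times for Mmp3-positive cells.

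**Figure D2:**
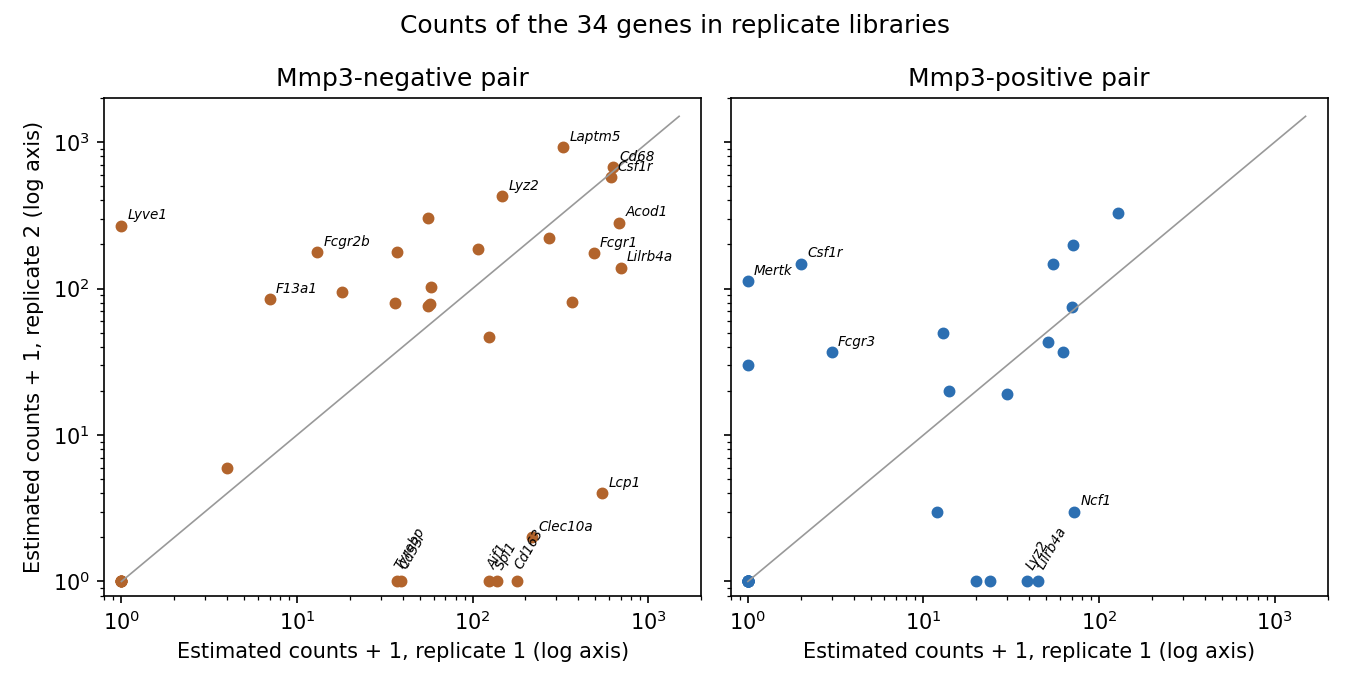
Estimated counts plus 1 of the 34 genes in replicate 1 (x axis) and replicate 2 (y axis), both log axes, for the Mmp3-negative (left) and Mmp3-positive (right) pair, with the line of equality. Points on the axes have 0 counts in a library, such as Lyve1, with 268 counts in Mmp3-negative replicate 2 and 0 in replicate 1.

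Reads of a gene also lay on different transcripts from library to library. Of 16 genes with 10 to 1000 counts in both Mmp3-negative libraries and several transcripts, 7 had the same leading transcript in both, 43.8% beside 47.6% of 5747 protein-coding genes. For Adgre1, the 57 counts of Mmp3-negative replicate 1 were all on the 402-base transcript Adgre1-203 and the 102 counts of replicate 2 all on the 3124-base Adgre1-201. More than 50% of a gene's counts lay on transcripts not typed as protein-coding for 6 of 26, 5 of 21, 4 of 15 and 6 of 13 genes with 10 counts or more, in Mmp3-negative replicates 1 and 2 and Mmp3-positive replicates 1 and 2 in that order. For all protein-coding genes this share was 22.6%, 22.3%, 18.9% and 19.8%.

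Receptors that identify macrophages and monocytes summed to 53.73 and 84.82 CPM in Mmp3-negative replicates 1 and 2, against 4.895 and 13.85 CPM. Csf1r, the receptor for the macrophage growth factors, had 611 and 573 counts against 1 and 147. The groups did not overlap, and the Mmp3-negative pair was nearly equal (32.96 and 33.04 CPM), while the Mmp3-positive pair stood at 0.05263 and 7.484 CPM. The log2 fold change was -3.13 with a standard error of 1.75 (edgeR adjusted p = 0.775). Without Mmp3-positive replicate 1 it was -2.14, and without replicate 2, which left 1 count in that group, it was -9.12.

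Cx3cr1, the fractalkine receptor, had 270 and 219 counts against 12 and 49. Nearly all reads were on Cx3cr1-201, the groups did not overlap, and the log2 fold change was -3.12 with a standard error of 1.51 (edgeR adjusted p = 0.673). Among genes whose span overlaps Cx3cr1, Ttc21a had 652 and 540 counts against 129 and 0 and Xirp1 746 and 840 against 66 and 309. Wdr48, Gorasp1 and Csrnp1, which also overlap it, did not show that order. Their part in the Cx3cr1 value was not tested. Adgre1, which encodes F4/80, the classical mouse macrophage surface protein, had 57 and 102 counts against 0 and 0. Zeros were set to 3 counts in each library (0.155 CPM on average), a limit that covers counting error only, which made Adgre1 at least 28.8-fold lower (edgeR adjusted p = 0.480). Each such bound, here and below, sets the mean of the higher pair against that limit. It does not cover the spread between replicates, so a single library can lie closer to the limit.

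The other surface genes of this kind overlapped between groups. Cd14, the lipopolysaccharide co-receptor, had 55 and 304 counts against 69 and 74, so that only Mmp3-negative replicate 2 stood out. Ccr2, the chemokine receptor of inflammatory monocytes, stayed at 2 to 11 counts in every library. Lyve1, a hyaluronan receptor of resident macrophages and of lymphatic endothelium, had 268 counts in Mmp3-negative replicate 2 and 0 in the other libraries. The 6 lymphatic endothelial markers summed to 343.6 and 376.0 against 446.1 and 418.3 CPM, most of it Pdpn, at 6007 and 6107 counts against 8356 and 8210. Prox1 had 132 and 87 counts against 15 and 0, Reln 116 and 317 against 12 and 6, and Flt4 114 and 9 against 94 and 0. Mmp3-negative lay above for 2 of the 6, Prox1 and Reln, and Mmp3-positive for 1, Pdpn, beside 14.7% and 18.8% of all genes. At an unadjusted p under 0.05 edgeR had 1 of the 6 lower and 0 higher (3.25% and 5.62% of all genes). DESeq2 also called 1 lower and 0 higher (4.18% and 5.46%). Ccl21a and Mmrn1 had 0 in all 4 libraries. Their part in the Lyve1 value was not tested.

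**Figure D3:**
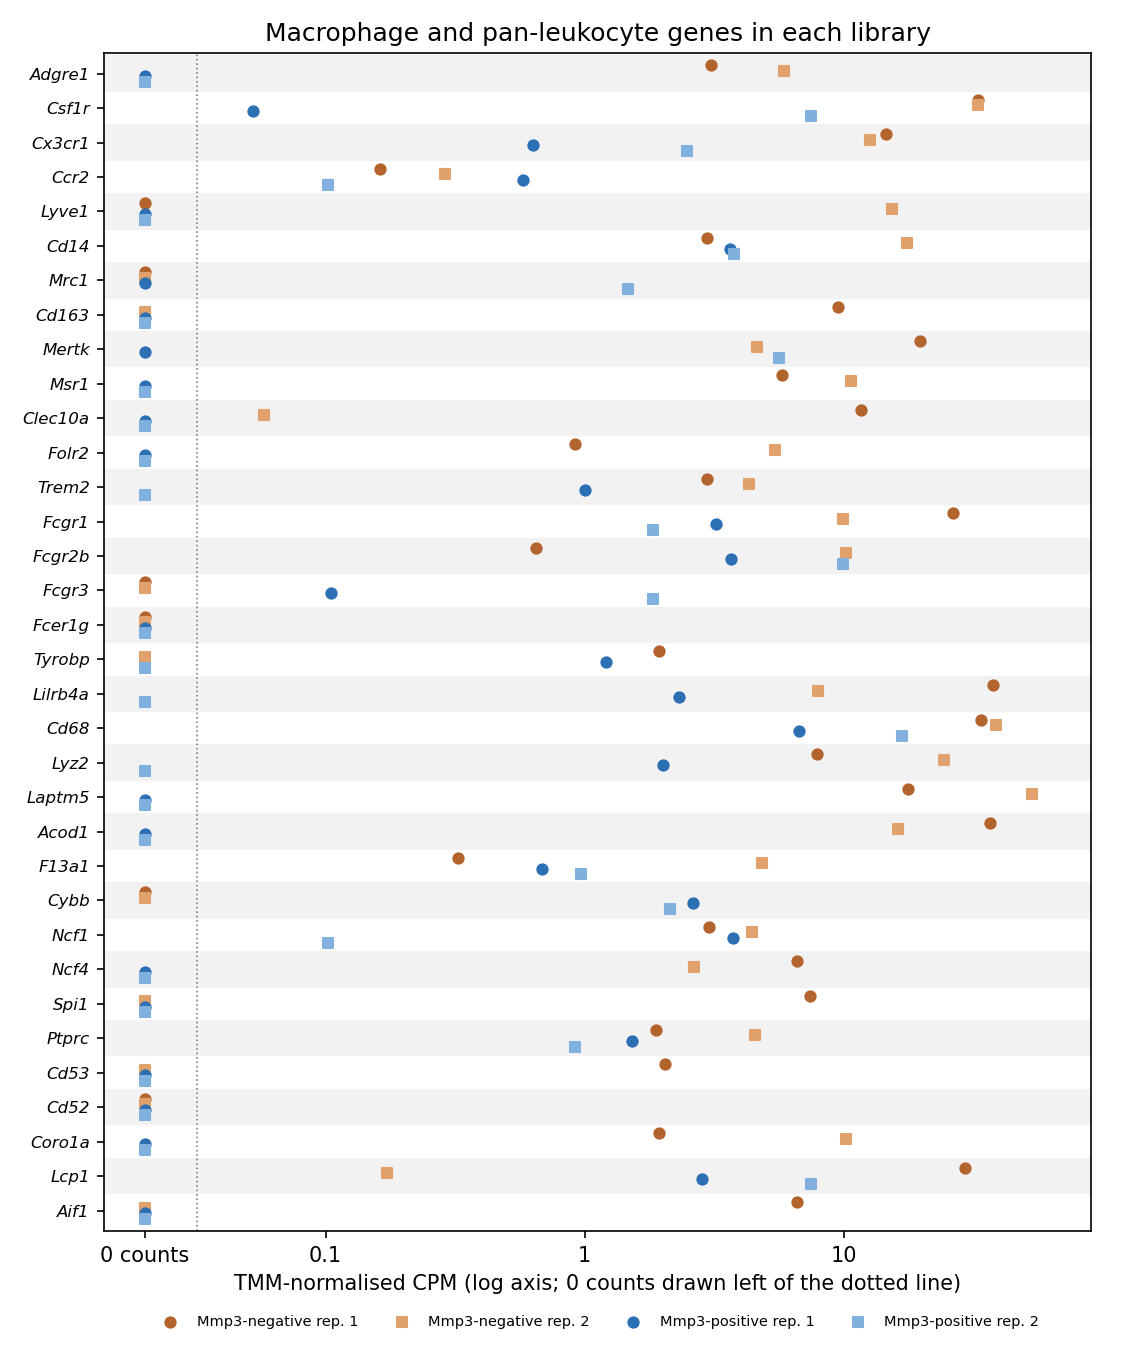
TMM-normalised CPM (log axis) of each of the 34 genes in each library, with libraries at 0 counts drawn left of the dotted line. Circles are replicate 1 and squares replicate 2. Brown Mmp3-negative points lie to the right of blue Mmp3-positive points for 16 genes, and Cybb and Fcgr3 show the opposite order.

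Scavenger, lectin and uptake receptors summed to 50.71 and 25.08 CPM against 1.0 and 7.128 CPM. Msr1, the class A scavenger receptor, had 107 and 185 counts against 0 and 0, at least 52.9-fold lower (edgeR adjusted p = 0.480). Folr2, a folate receptor of resident macrophages, had 17 and 94 counts against 0 and 0, at least 20.4-fold lower (edgeR adjusted p = 0.480). In both genes the Mmp3-positive libraries were at 0, and the Mmp3-negative replicates differed more for Folr2 than for Msr1.

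Trem2, a lipid-sensing receptor, had 55 and 75 counts against 19 and 0. The leading transcript differed by library: coding Trem2-201 in Mmp3-negative replicate 1, the processed transcript Trem2-204 in replicate 2, and the retained-intron Trem2-203, with all 19 counts, in Mmp3-positive replicate 1. The log2 fold change was -2.85 with a standard error of 2.65 (edgeR adjusted p = 0.961). Mertk, the receptor for apoptotic cells, had 367 and 80 counts against 0 and 111, and the groups overlapped.

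The remaining receptors were seen in 1 or 2 libraries. Clec10a, a galactose-type lectin, had 217 counts in Mmp3-negative replicate 1 and 1 in replicate 2, and Cd163, the hemoglobin scavenger receptor, had 177 and 0. Both had 0 counts in the Mmp3-positive libraries. Mrc1, the mannose receptor (CD206), a gene known for high expression in resident adipose macrophages, had 0 counts in both Mmp3-negative libraries and in Mmp3-positive replicate 1, and 29 counts in Mmp3-positive replicate 2. Mrc1 was thus not counted in the libraries where Csf1r was highest.

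Fc receptors and their partners were split. Fcgr1, the high-affinity IgG receptor, had 489 and 173 counts against 61 and 36, without overlap. Its log2 fold change was -2.85 with a standard error of 1.23 (edgeR adjusted p = 0.598). The reads lay on the coding transcript Fcgr1-201 in Mmp3-negative replicate 1 (475.1 counts) and on Fcgr1-202, typed as subject to nonsense-mediated decay, in replicate 2 (173 counts). The same split held in the Mmp3-positive pair, with 61 counts on Fcgr1-201 in replicate 1 and 36 on Fcgr1-202 in replicate 2.

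Fcgr2b, the inhibitory IgG receptor, had 12 and 177 counts against 70 and 196, and both groups held a low and a high library. Its log2 fold change was 0.33 with a standard error of 1.81 (edgeR adjusted p = 0.999). Fcgr3, an activating IgG receptor, had 0 and 0 counts against 2 and 36, all on a retained-intron transcript, Fcgr3-203, which is at least 5.79-fold higher and rests mostly on replicate 2. Fcgr2b and Fcgr3 are closely related in sequence and lie on chromosome 1 of GRCm38, Fcgr2b from 170958617 to 170976547 and Fcgr3 from 171051174 to 171064935, so the division of reads between them is uncertain.

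The shared signalling adaptors of these receptors were at 0 or uneven between replicates. Fcer1g, the chain that Fcgr1 and Fcgr3 signal through, had 0 counts in all 4 libraries, which allows up to 3 counts in each. Tyrobp (DAP12), the adaptor of Trem2, had 36 and 0 counts against 23 and 0. In TPM these were 3.719 and 0 against 3.904 and 0. Lilrb4a, an inhibitory receptor of myeloid cells, had 698 and 138 counts against 44 and 0. Its Mmp3-negative libraries were both higher, the log2 fold change was -4.29 with a standard error of 2.21 (edgeR adjusted p = 0.725), and its counts in Mmp3-positive cells came from replicate 1 alone. The neighbouring paralog Lilr4b, looked up after the values of Lilrb4a were seen, had 948 and 203 counts against 183 and 1, and reads of the pair may be shared.

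Lysosomal, lysozyme and enzyme genes summed to 96.57 and 137.8 CPM against 9.421 and 17.72 CPM, and held the 2 genes with the highest mean TPM. Cd68, a lysosomal glycoprotein of macrophages (chromosome 11, 69664213 to 69666153, minus strand), had the highest mean TPM of the 34 genes, at 30.93 and 55.04 TPM against 10.77 and 18.2 TPM. Its counts were 627 and 672 against 128 and 329, so every library held the gene and the groups did not overlap. Its log2 fold change was -1.63 with a standard error of 0.67 (edgeR adjusted p = 0.569). This was the smallest standard error among the 23 tested, with a level of 36.3 ± 3.48 CPM against 11.7 ± 7.08 CPM (SD, n = 2).

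Laptm5, a lysosomal membrane protein of leukocytes (chromosome 4, 130913125 to 130936141, plus strand), followed it by mean TPM. It had 328 and 927 counts against 0 and 0. That is at least 229-fold lower, the largest such bound among the 34 genes (edgeR adjusted p = 0.480, unadjusted p = 0.000831). The coding transcript Laptm5-201 held 220.2 and 564.9 of these counts. Acod1, the itaconate-producing enzyme that activated macrophages induce (chromosome 14, 103046977 to 103056573, plus strand), had 683 and 281 counts against 0 and 0, all on its only listed transcript, at least 171-fold lower (edgeR adjusted p = 0.480).

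Lyz2, lysozyme M, a gene used widely to mark myeloid cells, had 146 and 425 counts against 38 and 0. The groups did not overlap, the log2 fold change was -4.01 with a standard error of 2.33 (edgeR adjusted p = 0.800), and its neighbouring paralog Lyz1 had 0 counts in all libraries. F13a1, the coagulation factor XIII A chain made by resident macrophages, had 6 and 84 counts against 13 and 19, with only Mmp3-negative replicate 2 apart.

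The NADPH oxidase subunits did not share a pattern. Cybb, the membrane catalytic subunit (chromosome X, 9435252 to 9487771, minus strand), had 0 and 0 counts against 50 and 42, at least 14.25-fold higher (edgeR adjusted p = 0.480). Those reads lay on 2 transcripts, the 390-base Cybb-205 in replicate 1 and Cybb-204, typed as subject to nonsense-mediated decay, in replicate 2, and no other Cybb transcript reached 5 counts. Ncf4 (p40phox) had the reverse pattern, 123 and 46 counts against 0 and 0, at least 29.9-fold lower (edgeR adjusted p = 0.480). Ncf1 (p47phox) had 56 and 77 counts against 71 and 2 and overlapped between groups. Outside the 34 genes, Cyba, the other membrane subunit, which many cell types express, had 1213 and 657 counts against 878 and 685.

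Spi1 encodes PU.1, the transcription factor that sets up the myeloid programme. It had 137 counts in Mmp3-negative replicate 1, on 2 coding transcripts, and 0 in the other libraries, so it did not pass the filter. PU.1 is known to bind purine-rich sites, and promoters of the genes were searched for GAGGAA, or TTCCTC on the other strand, which do not overlap each other. RefSeq promoters on GRCm38.p6, 250 bases before to 50 after a gene start, were found for 23 of the 34 genes (29 promoters). Those not listed were Adgre1, Csf1r, Lyve1, Cd14, Msr1, Clec10a, Tyrobp, Lilrb4a, Spi1, Ncf4 and Cd52. The letters occurred in 14 of 29 promoters, of 12 genes, and in 28.3% of all 32851 promoters of that length. The promoters printed here, with the matched letters in capitals, are the 3 with the most copies, with ties (Cd53 also held 2) broken by mean TPM: Cd68 (chr11:69666121-69666420, minus strand), Mrc1 (chr2:14229164-14229463, plus strand) and F13a1 (chr13:37050195-37050494, minus strand).
Cd68: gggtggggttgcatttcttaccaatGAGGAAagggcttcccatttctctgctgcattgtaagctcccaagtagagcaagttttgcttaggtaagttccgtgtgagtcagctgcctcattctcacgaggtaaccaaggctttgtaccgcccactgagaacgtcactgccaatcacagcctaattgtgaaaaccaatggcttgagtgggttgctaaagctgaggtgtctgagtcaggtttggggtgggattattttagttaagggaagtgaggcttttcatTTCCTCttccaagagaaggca
Mrc1: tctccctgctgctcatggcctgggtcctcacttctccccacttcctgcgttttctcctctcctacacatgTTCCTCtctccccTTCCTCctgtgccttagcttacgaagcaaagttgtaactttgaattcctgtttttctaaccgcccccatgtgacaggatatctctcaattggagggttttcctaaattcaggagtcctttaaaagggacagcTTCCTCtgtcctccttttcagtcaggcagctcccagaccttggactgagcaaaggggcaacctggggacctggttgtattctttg
F13a1: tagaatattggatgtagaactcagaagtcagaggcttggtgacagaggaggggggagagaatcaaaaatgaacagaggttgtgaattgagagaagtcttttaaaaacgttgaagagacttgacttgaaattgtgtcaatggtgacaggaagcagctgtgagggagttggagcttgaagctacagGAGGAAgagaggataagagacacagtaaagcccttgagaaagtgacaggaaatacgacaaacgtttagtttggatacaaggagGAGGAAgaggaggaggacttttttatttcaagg
Cd68 held 1 copy in each direction, Mrc1 3 of TTCCTC and F13a1 2 of GAGGAA. A match describes these letters only and is not a binding site. Mrc1, with the most copies, had 29 counts in all 4 libraries together, while Cd68, with 2 copies, had the highest mean TPM of the 34 genes. Lyz2, with 0 in its window, had up to 425 counts in a library. A relation of copies to level was not tested.

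Pan-leukocyte genes were low or uneven. Ptprc, the CD45 phosphatase of all white blood cells, had 35 and 79 counts against 29 and 18. The groups did not overlap, but the gap was small, with a log2 fold change of -1.39 and a standard error of 1.91 (edgeR adjusted p = 0.999). The retained-intron transcript Ptprc-210 held 35.4 and 24.1 of these counts in the Mmp3-negative replicates and 15.3 and 18.4 in the Mmp3-positive ones, and the only coding transcript with 5 counts or more, Ptprc-213, held 48 in Mmp3-negative replicate 2.

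Coro1a, an actin-binding coronin of leukocytes, had 36 and 177 counts against 0 and 0, at least 39.1-fold lower (edgeR adjusted p = 0.480). Those reads lay on retained-intron transcripts, Coro1a-204 in replicate 1 and Coro1a-206 in replicate 2, and Bola2, which overlaps Coro1a on the opposite strand, had 1195 and 1282 counts against 703 and 1069. Lcp1, the actin bundler L-plastin, had 544 and 3 counts against 54 and 147, so its highest and lowest libraries were both Mmp3-negative. Without Mmp3-negative replicate 1 its log2 fold change turned from -1.51 to 4.84 (edgeR adjusted p = 0.998 and 0.439). Aif1 (Iba1), a calcium-binding protein of macrophages, had 123 counts and the tetraspanin Cd53 had 38 counts in Mmp3-negative replicate 1, and both had 0 in the other libraries. Cd52, a small surface glycoprotein, had 0 in every library.

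A second list held 40 other macrophage and monocyte genes. Of these 27 were tested, and 0 were higher and 0 lower (edgeR), with a median log2 fold change of -1.41. At an unadjusted p under 0.05 edgeR had 9 lower and 0 higher, beside 3.25% and 5.62% of all genes. The DESeq2 Wald test called 9 lower and 0 higher, beside 4.18% and 5.46%, and limma called 0. In 14 of the 40 both Mmp3-negative libraries were above both Mmp3-positive ones, beside 14.7% of all genes, in 2 the reverse held, beside 18.8%, 16 overlapped and 8 had 0 counts throughout. Of the 4 with the highest mean TPM, Ctss, the lysosomal protease cathepsin S, stood at 92.52 and 65.5 CPM against 12.47 and 4.633 CPM, without overlap (log2 fold change -3.21 with edgeR, adjusted p = 0.480). The other 3 had over 50 CPM in every library. Plac8, a gene of monocytes among other cells, stood at 57.72 and 67.0 against 109.6 and 87.16 CPM. Sirpa, which signals on binding CD47, stood at 216.2 and 178.7 against 233.5 and 234.3 CPM. Gpnmb, a lysosomal glycoprotein, stood at 327.9 and 303.6 against 236.7 and 275.6 CPM.

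Of 28 other leukocyte genes for signalling and the cytoskeleton, 20 were tested, 0 were higher and 0 lower (edgeR), and the median log2 fold change was -2.50. At an unadjusted p under 0.05 edgeR had 4 lower and 0 higher (3.25% and 5.62% of all genes), while 6 were called lower and 0 higher by DESeq2 (4.18% and 5.46% of all genes) and 0 by limma. In 9 of the 28 the Mmp3-negative libraries lay above the Mmp3-positive ones, beside 14.7% of all genes, the reverse held in 2, beside 18.8%, 14 overlapped and 3 had 0 counts throughout. Ptpn6, the phosphatase SHP-1 of blood cells, had 239 and 311 counts against 0 and 8. Lsp1, which binds F-actin, stood at 125.3 and 163.8 against 103.7 and 135.5 CPM, and the Src-family kinase Lyn at 6.42 and 11.13 against 16.26 and 11.35 CPM. Cyba is given above with the oxidase.

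The summed mural and dendritic markers also stood lower in the Mmp3-positive libraries, although edgeR called 0 genes of either list. At an unadjusted p under 0.05 it had 4 mural and 2 dendritic markers lower (3.25% of all genes), DESeq2 called 4 and 2 lower (4.18% of all genes), and limma called 0. The 6 mural markers summed to 660.8 and 554.9 CPM against 84.47 and 82.83 CPM, with Mmp3-negative above Mmp3-positive for 5 of 6, beside 14.7% of all genes. The 9 dendritic markers stood at 178.7 and 70.29 CPM against 19.86 CPM or less, in that order without overlap for 4 of 9, and Flt3 and Cd209a had 0 counts in all libraries. Those 4 were H2-Ab1, H2-Aa, H2-Eb1 and Cd74, antigen presentation genes that macrophages also express. Of these, Cd74 had 1588 and 351 counts against 67 and 1 and H2-Eb1 641 and 365 against 0 and 0. Zbtb46 overlapped between groups, at 430 and 258 counts against 89 and 347. Clec9a had 27 counts in Mmp3-negative replicate 1 only, and Xcr1 had 2 in Mmp3-positive replicate 1 only. The 5 blood endothelial markers stood at 197.9 and 135.1 against 97.84 and 92.76 CPM, with 2 of 5 in that order without overlap. Both edgeR at an unadjusted p under 0.05 and DESeq2 had 2 of them lower (3.25% and 4.18% of all genes). The sums of the 6 fibroblast markers overlapped, at 10980 and 16460 against 13390 and 18160 CPM. For 4 of the 6, Mmp3-positive lay above Mmp3-negative, beside 18.8% of all genes, and for 0 the reverse held. At an unadjusted p under 0.05 edgeR had 2 fibroblast markers higher (5.62% of all genes), and DESeq2 called 2 higher (5.46%). The 4 red blood cell markers summed to 21.42 and 10.26 against 3.789 and 6.924 CPM. Mmp3-negative lay above for 2 of these 4 and Mmp3-positive for 1, beside 14.7% and 18.8% of all genes. The 4 mesothelial markers summed to 8.632 and 22.55 against 7.368 and 3.869 CPM, with 1 of 4 in each order. The part of these cells in the macrophage gene values was not tested.

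Many lymphocyte and granulocyte markers were at 0 or uneven between libraries. The 9 T cell markers summed to 52.28 and 1.211 CPM against 11.42 and 11.05 CPM, with Cd3g at 0 in all 4 libraries. Lck had 413 and 1 counts against 0 and 94, Cd3d 146 and 18 against 104 and 41, and Trac 113 and 0 against 5 and 0. Cd8a (197 counts) and Cd2 (91) were counted in Mmp3-negative replicate 1 only, and Cd4 (49) in Mmp3-positive replicate 1 only. Cd5 had 0 and 0 counts against 59 and 82, and Cd3e held the reverse order, 9 and 2 against 0 and 0. Of the list, edgeR at an unadjusted p under 0.05 had 1 higher, Cd5, and 0 lower (5.62% and 3.25% of all genes). DESeq2 also called 1 higher and 0 lower (5.46% and 4.18%). The 6 B cell markers stood at 51.68 and 27.39 against 31.16 and 21.49 CPM, most of it Pax5, with Cd79a and Cd79b at 0 throughout. All 6 NK cell markers had 0 counts. The 7 neutrophil markers summed to 17.8 CPM or lower, with S100a8, S100a9 and Ly6g at 0. Csf3r had 329 and 1 counts against 0 and 0, and Cxcr2 0 and 12 against 120 and 3. Retnlg had 58 counts in Mmp3-negative replicate 2 only, and Mpo 1 in Mmp3-negative replicate 1 only. Mast cell and eosinophil markers had counts for 1 gene each, in 1 library. Pan-leukocyte genes can come from these cells as well as from macrophages, and their part was not tested.

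**Figure D4:**
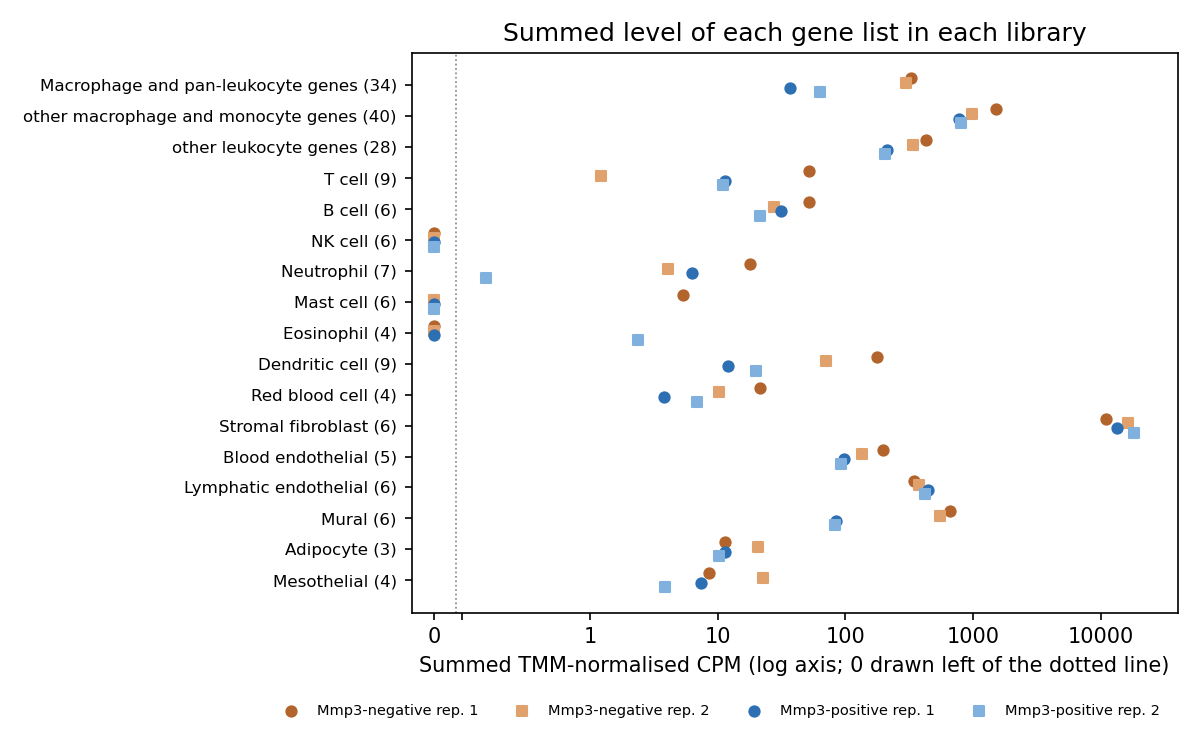
Summed TMM-normalised CPM (log axis) of each gene list in each library, with the number of genes found in parentheses and sums of 0 drawn left of the dotted line. The 34 genes and both companion lists lie lower in both Mmp3-positive libraries. So do the mural, dendritic, blood endothelial, red blood cell and mesothelial markers. The sum of the lymphatic endothelial markers, most of it Pdpn, lies higher, although Prox1 and Reln were lower. The T cell markers stand far apart in the Mmp3-negative replicates (52.28 and 1.211), and NK cell markers are at 0 in all 4.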

How the data were processed

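RNA of 4 libraries, 2 Mmp3-negative and 2 Mmp3-positive, was extracted with a kit made for fixed, paraffin-embedded tissue, depleted of ribosomal RNA and sequenced with strand kept, per the labels' protocols. Per the submitters' processing notes, kallisto 0.45.0 and build GRCm38 were used. Per the file headers, the authors deposited estimated counts, TPM values and effective lengths of 115270 transcripts. The sources used here do not give the transcript set or strand setting, so reads of genes that overlap on opposite strands (Csf1r with Hmgxb3, Cx3cr1 with Wdr48 and Ttc21a, Ncf1 with Gtf2ird2, Cd52 with Crybg2, Coro1a with Bola2) cannot be told apart with certainty.

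Estimated counts were summed over 113580 transcripts matched by identifier to GENCODE M21 (1690 matched none), giving 35580 genes, and rounded. Genes kept by filterByExpr (minimum count 10), 14185 in all, were scaled by TMM and tested two-sided with edgeR 4.0.16 (R 4.3.3), without a covariate, with Benjamini-Hochberg adjustment over all genes and a threshold of 0.05. Each standard error is the size of the log2 fold change divided by the root of its F statistic. With 2 libraries per group, 2 residual degrees of freedom remained. The script was tested on simulated data. Alternatives were DESeq2 1.42.0 size factors and Wald test, no count filter, the set number as a replicate block, a length offset, limma 3.58.1 on log2(TPM + 1), protein-coding genes only, and leaving out each library. Sums over protein-coding transcripts only were added after seeing the data. Python 3.11.15, pandas 2.3.3 and matplotlib 3.10.9 were used for sums and plots.

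The 34 genes, the other lists and the rules were chosen with earlier results of these data known. Named in full were genes past the threshold, the 12 with the highest mean TPM, those under 3 counts in both libraries of a group, and those over 10 times apart within a group with at least 30 counts. Of the companion lists, the 4 with the highest mean TPM were named. Other genes named, such as Lilr4b, Lyz1, Bola2, Prox1 and Reln, were chosen after their values were seen. Intervals and floors cover counting error only, since reads without molecular identifiers are not independent molecules.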

Additional observations from a re-analysis of the deposited data

Results flagged for a closer look

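Transcripts that matched no gene stood outside the comparison. They held 2.08% of the estimated counts of Mmp3-negative replicate 1 (95% Wilson interval 2.072% to 2.085%), above the 1.61e-05% that 3 counts would make there. The other libraries were also far above that limit, at 0.729%, 0.809% and 0.995%.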

How the results depend on the processing

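The summed level was lower in Mmp3-positive libraries under every setting run (log2 ratio -2.65), from -3.09 to -2.31 with each library left out, and at -2.71 with protein-coding transcripts only, chosen after seeing the data. The median of the tested genes was -4.39 under the replicate block (by set number) and -7.25 to -2.55 with each library left out, where the filter kept 27 to 31 of the 34 genes. Of the 34 genes, 1 was called lower with no count filter, 10 lower and 1 higher with the DESeq2 Wald test, and 0 to 3 lower with a library left out. Over all genes, edgeR called 1 higher and 2 lower, and unfiltered it called 4 and 23. The DESeq2 Wald test called 775 and 593, the replicate block 1 and 4, the length offset or coding transcripts 1 and 0, limma on log2(TPM + 1) 0 and 0, and fits without a library 1 to 237 and 1 to 116. Fewer samples were then used, and a group with 1 library borrowed its spread from the other pair. The cause of the other differences was not tested. Under limma the all-gene median shifted to 0.29 from 0.02, and under the block to 0.12. The correlation of same-numbered deviations was 0.026 over 2 pairs, too few to show whether the numbers pair the libraries. Values that turned sign had not passed the threshold: Lcp1 was 0.86 with the replicate block, Tyrobp 0.028 with limma, and Mertk 0.27 with protein-coding transcripts only. With a library left out, ranges were -0.58 to 3.39 for Fcgr2b, -7.18 to 6.51 for Tyrobp, -2.50 to 4.84 for Lcp1, -2.25 to 0.32 for Cd14 and -2.55 to 1.34 for F13a1. The filter left out 11 of the 34 genes, and 32 were tested without it.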

Other observations

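Counts and TPM gave some replicate pairs a different order. Adgre1 had fewer counts in Mmp3-negative replicate 1 than in replicate 2 (57 and 102) but a higher TPM (9.974 and 2.626). Fcgr1 had the reverse, with 489 and 173 counts and 9.273 and 30.67 TPM. Among genes with at least 10 counts in both libraries, the order differed for 4 of 19 of the 34 genes in the Mmp3-negative pair and 3 of 9 in the Mmp3-positive pair, beside 30.4% and 22.1% of all protein-coding genes.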
